A study of Homo sapiens with 36 samples.

Results

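The genes described are 8 human ectoenzymes, proteins that sit in the plasma membrane with their catalytic part outside the cell. They are the aminopeptidases ANPEP, TRHDE and LNPEP, the dipeptidyl peptidase family members DPP4 and FAP, the metalloendopeptidases MME and ECE1, and the nucleotidase NT5E. They were chosen by name as surface ectoenzymes, together with the instruction to give levels by line and to compare fractions wherever the mean of the cell body arrays of a line was 100 intensity units or more. The platform annotation pairs 7 of the 8 genes with 16 probe sets, out of 19775 named genes and 54593 probe sets in all. LNPEP was not analysed here, since the annotation pairs no probe set with it.

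Surface peptidases trim or inactivate peptides outside the cell, each with its own preference for the residue that is removed or the bond that is cut. ANPEP (CD13) and TRHDE remove residues from the amino end, DPP4 (CD26) and FAP cut after a proline near the amino end, MME (neprilysin, CD10) and ECE1 cut inside short peptides, and ECE1 turns big endothelin into endothelin. NT5E (CD73) is anchored by a lipid tail and turns extracellular AMP into adenosine. Several of these enzymes serve as surface antigens for sorting cells, and FAP is known from activated fibroblasts of tumour stroma.

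The RNA came from pseudopods (PS) and cell bodies (CB) of 6 established human cancer lines, which were cultured for 24 h on porous filters and then scraped off the lower side (PS) and the upper side (CB). U87 and U251 (both glioblastoma) and HT1080 (fibrosarcoma) were kept in high-glucose DMEM, and DU145 (prostate carcinoma), MDA231 (breast carcinoma) and MDA435 (described as breast cancer, of disputed origin) in RPMI-1640, all with fetal bovine serum, so medium and line cannot be told apart whereas both fractions of a line shared a medium. There were 3 arrays for each of the 12 groups, 36 in all, hybridised with RNA amplified from 100 ng in 2 cycles. The labels number the replicates without saying whether they were separate cultures, so p-values measure the spread between these arrays, which may be technical. A pseudopod fraction is a part of cells, and in such bulk RNA fewer cells of a type and less RNA per cell cannot be told apart. Each array began with the same 100 ng and was scaled to a common mean, so an intensity is relative to its fraction's other RNA. A lower PS value therefore does not give an amount per pseudopod. In this and all later comparisons a log2 change is PS minus CB on the log2(intensity + 16) scale, and it passed the test when its adjusted p was under 0.05 (limma, Benjamini-Hochberg over all probe sets).

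By best correlation the arrays fitted their line labels: each of the 36 was most similar to an array of its own line. A best match does not show whether an array also held RNA of another line, which was not tested. Among the arrays, 0 pairs held identical values. The sum of 6 glial and neural markers was 90.1 to 180.8 in U87 PS and 159.6 to 305.3 in U87 CB. In U251, the other glioblastoma line, it was 5721.5 to 7069.6 in PS and 9571.9 to 10925.2 in CB. Of 6 melanocytic markers, SOX10, S100B, TYR and MITF were higher in MDA435 than in any other line (means of 1468, 2402, 409.9 and 1932), whereas PMEL (22.8) and MLANA (14.9) stayed dim there. The sum of the blood cell markers with a probe set (PTPRC, CD14, CD3E and ITGAM), of interest because several members are leukocyte antigens, was between 42.7 and 187.6 in the 36 arrays. The sum of 6 epithelial markers differed between replicates of MDA231 and MDA435, which bears on NT5E and ECE1 and is given there.

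All 7 genes measured had less RNA signal in PS than in CB in the lines where they were compared. Of the 16 probe sets, 12 had at least 1 line with a CB mean of 100 or more (a qualifying line), and 11 of these 12 passed the test as lower in PS when their qualifying lines were averaged, while 0 passed as higher. Over all 20319 probe sets with a qualifying line, 25.6% were called lower and 33.3% higher (5195 and 6769), and with array medians set equal 4328 were lower and 9690 higher. The median averaged log2 change was -1.01 over the 12 member probe sets, beside 0.09 over all 20319. The exception was 227486_at of NT5E, at -0.18.

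The 12 probe sets and their qualifying lines made 36 pairs, and in all 36 the PS mean was below the CB mean. The PS mean was between 20.0% and 95.0% of the CB mean, with a median of 51.3%. In 24 pairs the fall passed the within-line test, 12 pairs did not pass, and 0 were called higher, beside 15.0% lower and 10.2% higher of all 93545 pairs of probe set and line. In 28 of the 36 pairs all 3 PS arrays lay below all 3 CB arrays, beside 19.7% of all pairs. The CB mean that admits a line is also part of the PS minus CB difference, and the genes were chosen with earlier results known, so these counts describe the members and are not independent evidence of their direction. With lines admitted by the mean of both fractions, 10 of 11 probe sets and 20 of 32 pairs were called lower.

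The lines contributed unequally. In U87, 9 of 10 member pairs were called lower (20.4% of all probe sets tested there), in U251 5 of 5 (16.9%) and in HT1080 6 of 6 (20.4%). In MDA435 it was 3 of 4 (15.7%), in DU145 1 of 6 (6.63%) and in MDA231 0 of 5 (9.97%). DU145 and MDA231 thus had both the lowest shares over all probe sets and the lowest counts among the members. The member counts rest on different probe sets in different lines. The MDA231 pairs were those of NT5E and ECE1, and DU145 had DPP4 as well. The HT1080 pairs were those of ANPEP, TRHDE, MME and ECE1, without NT5E. NT5E 227486_at, which passed in no line, qualified only in U87, DU145 and MDA231. The counts alone therefore do not show a smaller fall in DU145 and MDA231. On ECE1 201749_at, DU145 and MDA231 had the smallest falls (-0.21 and -0.55). They also did on NT5E 1553994_at (-0.53 and -0.57) and 203939_at (-0.61 and -0.48). On NT5E 1553995_a_at MDA231 was smallest (-0.72), followed by U251 (-0.82) and DU145 (-0.83). The test of differences between lines, given below, called none of these probe sets. The sum of 6 mesenchymal markers, 0 of which were at 0, is given beside the counts of calls. It was lower in PS without overlap in U87 (9629 to 16007 in PS, against 19259 to 26573 in CB), U251 (4987 to 6761, against 7492 to 8889.8), HT1080 (6967 to 11383, against 12038 to 14229) and MDA435 (3641 to 4399, against 5111 to 6671). It overlapped in DU145 (3492 to 3863 in PS, against 3504 to 3829 in CB) and MDA231 (4338.5 to 5183, against 4193 to 5630.1). Most of the sum there was VIM, which was not lower in PS. VIM had 3152, 3538 and 3169 in DU145 PS, against 2945, 3306 and 2673 in CB. In MDA231 it had 3080, 3932 and 3541 in PS, against 2879, 2776 and 3065 in CB. LOX and COL6A3 were lower in MDA231 PS without overlap, so the sum does not describe each marker. The part of this sum in the falls of the members in any of these lines was not tested.

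**Figure D1:**
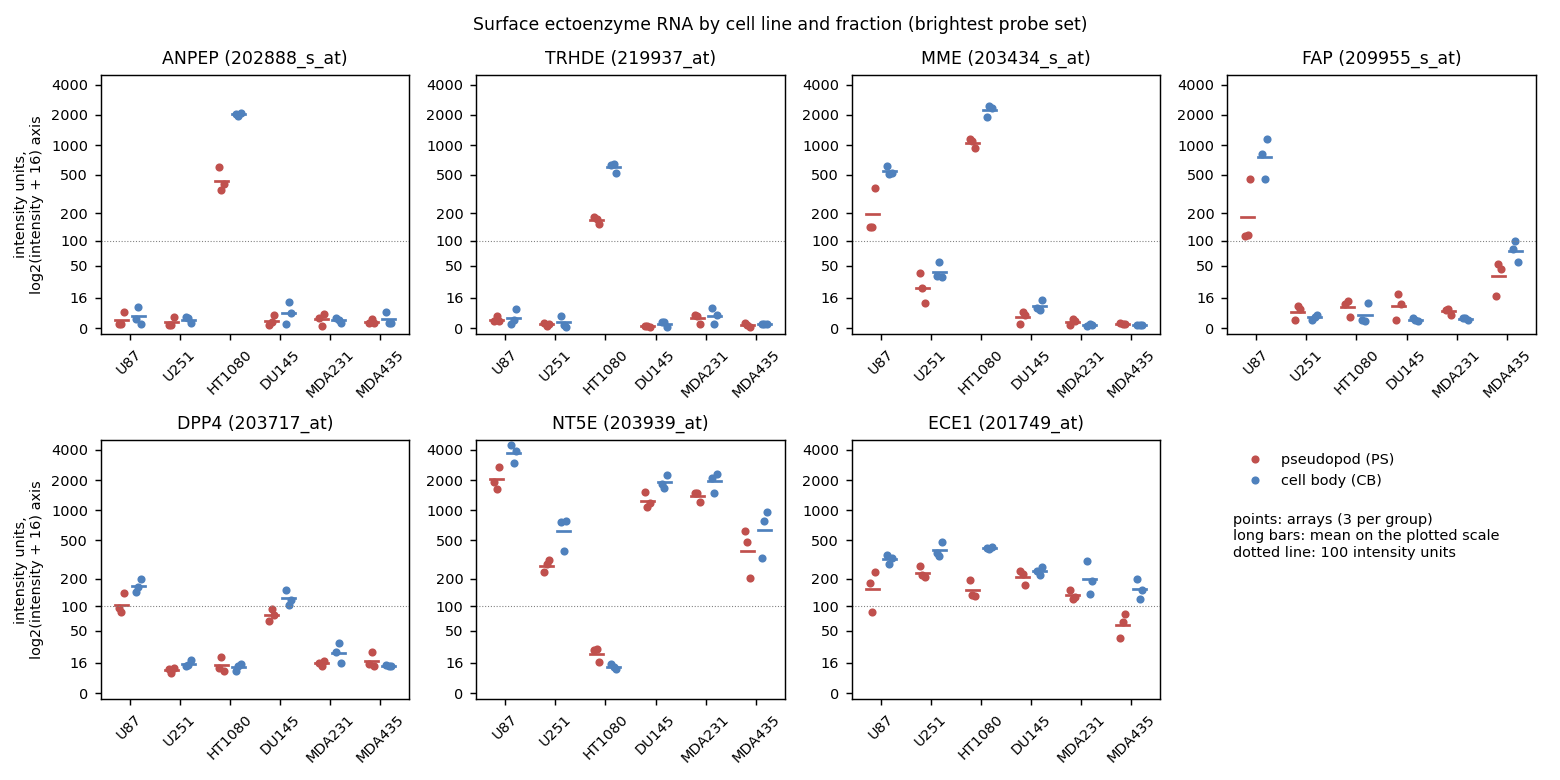
Intensity of the brightest probe set of each of the 7 genes in the 36 arrays (log2(intensity + 16) axis), with PS left of CB within each line, long bars at the mean on that scale and the dotted line at 100 intensity units. ANPEP and TRHDE exceed it only in HT1080, NT5E in every line but HT1080, and ECE1 in the CB arrays of all 6 lines.

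The aminopeptidase genes ANPEP and TRHDE were bright in HT1080 and near the floor elsewhere. ANPEP (202888_s_at) had 597, 352 and 401 intensity units in the HT1080 PS arrays, against 2049.5, 1966 and 2094 in the HT1080 CB arrays. In the other 30 arrays it ranged from 0.9 to 13.0, with a median of 2.7. The PS values were all below the CB values, and every other line lay below both. The mean was 450.1 ± 130 in PS and 2036 ± 64.7 in CB (SD, n = 3 each), a log2 change of -2.17 ± 0.18 (SE; 4.51-fold lower; limma, adjusted p = 3.12e-09). Its other probe sets, 234458_at and 234576_at, had highest single arrays of 20.9 and 6.4 and were compared in no line.

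TRHDE, the ectoenzyme that breaks down thyrotropin-releasing hormone, had the same line pattern at a lower intensity (219937_at). It had 181, 172 and 154 intensity units in HT1080 PS, against 639, 642 and 524 in HT1080 CB. The remaining 30 arrays lay between 0.3 and 9.2 (median 1.7). The fractions of HT1080 did not overlap, and no array of another line came near either of them. The log2 change was -1.74 ± 0.14 (SE; 3.33-fold lower; limma, adjusted p = 1.25e-09), with means of 169 ± 13.6 in PS and 601 ± 67.3 in CB (SD, n = 3 each).

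The sequence upstream of these genes is shown because ANPEP and TRHDE share the HT1080 pattern while NT5E has the opposite one, with HT1080 as its lowest line. Each is the 250 bases before a RefSeq transcript start (GRCh38.p14), written 5′ to 3′ on the gene's strand. RefSeq gives 7 of the 8 genes an entry here, and ANPEP has 2 starts. ANPEP, upstream start, is at chr15:89814853-89815102 (minus strand), and its downstream start at chr15:89806629-89806878 (minus strand). TRHDE is at chr12:72272120-72272369 (plus strand) and NT5E at chr6:85449833-85450082 (plus strand). Capitals mark matches to the GC box letters GGGCGG on either strand.
ANPEP upstream start: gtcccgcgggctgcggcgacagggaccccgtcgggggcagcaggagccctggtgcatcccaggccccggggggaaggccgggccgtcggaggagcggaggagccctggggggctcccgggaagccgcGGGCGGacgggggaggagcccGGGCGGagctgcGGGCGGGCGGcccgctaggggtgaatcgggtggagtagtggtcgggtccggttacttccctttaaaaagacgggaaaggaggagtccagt
ANPEP downstream start: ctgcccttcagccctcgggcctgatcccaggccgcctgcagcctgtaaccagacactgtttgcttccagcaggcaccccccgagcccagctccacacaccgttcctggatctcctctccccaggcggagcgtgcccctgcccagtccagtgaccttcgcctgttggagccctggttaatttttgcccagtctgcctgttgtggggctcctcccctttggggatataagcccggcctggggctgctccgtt
TRHDE: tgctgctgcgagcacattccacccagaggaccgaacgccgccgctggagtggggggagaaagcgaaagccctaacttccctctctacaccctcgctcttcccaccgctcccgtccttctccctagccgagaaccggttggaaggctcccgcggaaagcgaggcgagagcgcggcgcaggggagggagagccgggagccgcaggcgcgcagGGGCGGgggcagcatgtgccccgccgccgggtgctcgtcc
NT5E: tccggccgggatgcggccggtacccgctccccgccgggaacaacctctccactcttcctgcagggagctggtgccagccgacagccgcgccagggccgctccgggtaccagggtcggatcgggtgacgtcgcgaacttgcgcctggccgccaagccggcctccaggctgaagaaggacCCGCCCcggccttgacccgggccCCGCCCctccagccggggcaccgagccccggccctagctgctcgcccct

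The windows differed in how many GC box matches they held. The upstream ANPEP start had 4, of which the last 2 overlap, NT5E had 2, TRHDE 1 and the downstream ANPEP start 0. The GC content was 74.0% and 64.4% at the upstream and downstream ANPEP starts, 70.4% at TRHDE and 75.2% at NT5E. Of 35116 windows of this length over all genes, 42.6% held GGGCGG on either strand. The letters of 5 other motifs, searched on both strands, were not in the 4 windows: TATAAA (in 10.7% of all windows), CCAAT (32.0%), TGANTCA (6.57%), TGACGTCA (1.65%) and CACGTG (6.34%).

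MME, whose product cuts enkephalins, substance P and other short peptides, qualified in HT1080 and U87. On 203434_s_at it had 1141, 1103 and 944 intensity units in HT1080 PS, against 1897, 2456.5 and 2333 in HT1080 CB. In U87 the values were 143, 143 and 365 in PS, against 615.5, 507.5 and 519 in CB. The fractions were apart in both lines, although PS replicate 3 of U87 was well above the other U87 PS arrays. The log2 changes were -1.05 ± 0.23 in HT1080 and -1.40 ± 0.23 in U87 (SE; limma, adjusted p = 0.000563 and 3.12e-05), and -1.23 ± 0.16 averaged (2.34-fold lower, adjusted p = 2.19e-07). In CB the order of the lines was HT1080, U87, U251 (mean 42.4), DU145, with no overlap between neighbours. DU145, MDA231 and MDA435 together ranged from 0.7 to 14.5, and MDA435 and MDA231 overlapped at the bottom.

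The other MME probe set, 203435_s_at, gave lower intensities and also fell in both lines. It had 732, 494.5 and 544 in HT1080 PS, against 1229.6, 1543 and 1336 in HT1080 CB, and 112, 95.9 and 211 in U87 PS, against 315, 270.4 and 233 in U87 CB. Again no PS array reached the lowest CB array of its line. The log2 changes were -1.21 in HT1080 (limma, adjusted p = 3.67e-06) and -0.95 in U87 (adjusted p = 9.95e-05).

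FAP, a collagen- and peptide-cutting serine protease closely related to DPP4, was a U87 gene in these lines. On 209955_s_at it had 113, 115 and 451 intensity units in U87 PS, against 806, 453 and 1163 in U87 CB. PS replicate 3 and CB replicate 2 nearly met, but the fractions did not overlap. The log2 change was -1.95 ± 0.35 (SE; 3.86-fold lower; limma, adjusted p = 7.57e-05), and it was -2.56 without PS replicate 3, the far end of a range of -2.56 to -1.64 over the fits without 1 U87 array each. MDA435 was the next line, with 17.4, 52.9 and 45.3 in PS and 79.2, 100.3 and 55.3 in CB, and its CB mean of 78.3 fell short of the comparison. The other 24 arrays lay between 2.6 and 18.7.

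DPP4, which trims chemokines and incretin hormones, was dim and qualified in U87 and DU145 on 203717_at. It had 94.2, 85.4 and 139 intensity units in U87 PS, against 144, 162 and 199 in U87 CB. In DU145 it had 66.0, 91.9 and 78.1 in PS, against 151.5, 104 and 116 in CB. In neither line did the fractions overlap, but the gaps between them were narrow. The log2 changes were -0.61 ± 0.18 in U87 (SE; limma, adjusted p = 0.00694) and -0.55 ± 0.18 in DU145 (adjusted p = 0.0445). The DU145 call ended in 5 of 6 fits without 1 DU145 array (all but CB replicate 2; adjusted p up to 0.232, log2 change -0.66 to -0.42 over the 6 fits), and the U87 call ended without PS replicate 2 (adjusted p = 0.0631). The 2 lines overlapped in CB, at means of 168.5 in U87 and 124 in DU145, and the 24 arrays of the other lines lay between 9.5 and 34.7.

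The remaining DPP4 probe sets stayed under the intensity limit. In U87, 203716_s_at had 5.9, 2.1 and 8.4 in PS, against 75.6, 64.4 and 86.8 in CB, and 211478_s_at had 17.2, 21.2 and 31.0 in PS, against 60.6, 55.6 and 58.7 in CB. Both had every PS array below every CB array and were not among the pairs counted. DPP4 and FAP are near each other on chromosome 2 in RefSeq, with GCG, the glucagon precursor gene, as the only protein-coding gene between them. The probe set of GCG (206422_at) did not exceed 15.7 in any array.

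Members just inside and just outside the limit of 100 are given here as a description. Just inside were ECE1 201750_s_at in U87 (PS mean 20.4, CB mean 102), the same probe set in U251 (50.4 and 112) and in HT1080 (33.7 and 143), DPP4 203717_at in DU145 (78.7 and 124) and NT5E 1553995_a_at in U251 (64.8 and 128). Just outside were ECE1 201750_s_at in DU145 (PS mean 31.0, CB mean 80.2), FAP in MDA435 (38.5 and 78.3), DPP4 203716_s_at in U87 (5.47 and 75.6), DPP4 211478_s_at in U87 (23.1 and 58.3) and NT5E 227486_at in MDA435 (46.1 and 54.2). On both sides of the limit the PS mean was the lower one.

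NT5E was the brightest member and was present in every line but HT1080. On 203939_at its CB means were 3771 in U87, 1977 in MDA231, 1928 in DU145, 697 in MDA435 and 644 in U251. U87 stood apart at the top, MDA231 and DU145 overlapped, MDA435 and U251 overlapped, and HT1080 stood apart at the bottom with all 6 arrays between 11.7 and 27.7. The 3 probe sets 203939_at, 1553994_at and 1553995_a_at were lower in PS when averaged over the 5 qualifying lines, with log2 changes of -0.74 ± 0.15, -0.88 ± 0.11 and -0.95 ± 0.13 (SE; limma, adjusted p = 7.21e-05, 1.55e-07 and 2.50e-07). In fold terms they were 1.68, 1.84 and 1.93 times lower in PS.

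In both glioblastoma lines NT5E was lower in PS on the same 3 probe sets. On 1553994_at U87 had 1533, 1263 and 1748 intensity units in PS, against 2599, 2750.1 and 2975 in CB. U251 had 219.5, 185 and 193 in PS, against 456, 378 and 489.6 in CB. Neither line had a PS array within the CB range. The log2 changes were -0.88 in U87 and -1.09 in U251 (limma, adjusted p = 0.00737 and 0.00217), and the U87 call ended without PS replicate 2 (adjusted p = 0.0518). On 203939_at U87 had 1933, 1651 and 2691 in PS, against 4454, 2962 and 3897 in CB, which again did not overlap. Its log2 change of -0.86 (adjusted p = 0.0377) lost the call in 4 of 6 fits without 1 U87 array (PS 1, PS 2, CB 1 or CB 3; adjusted p up to 0.162). In U251, 203939_at had 234, 284 and 312 in PS, against 769, 386 and 779 in CB (-1.12, adjusted p = 0.0112), and the call ended without CB 1 or CB 3 (adjusted p up to 0.0654). On 1553995_a_at the log2 changes were -1.15 in U87 (adjusted p = 0.00184) and -0.82 in U251 (adjusted p = 0.0296), the U251 call being lost without PS 1, PS 2, CB 1 or CB 3 (adjusted p up to 0.110).

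In DU145 the PS means of NT5E were below the CB means without passing the test. NT5E on 203939_at had 1530.1, 1077 and 1188 in DU145 PS, against 1829, 1676 and 2278 in DU145 CB, with no overlap. The log2 changes in DU145 were -0.61 on 203939_at, -0.53 on 1553994_at and -0.83 on 1553995_a_at (limma, adjusted p = 0.237, 0.187 and 0.0605). The 1553995_a_at difference lay close to the threshold. It passed without CB replicate 2 (limma, adjusted p = 0.0479), with a pseudocount of 64 (0.0384), with quantile normalization (0.0453), without MDA231 and MDA435 (0.0206) and without the CDH1-high arrays of those lines (0.0204).

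In MDA435 and MDA231 the replicates of NT5E were uneven. On 1553994_at MDA435 had 254, 248 and 202 intensity units in PS, against 499, 814 and 574 in CB, apart by a wide margin (-1.34, limma, adjusted p = 0.000335). On 203939_at the same line had 616, 477 and 204 in PS, against 332.5, 785 and 974 in CB, which overlapped (-0.67, adjusted p = 0.146). Over the 6 fits without 1 MDA435 array the log2 change ran from -1.12 to -0.22. The difference passed without PS 1 or CB 1 (limma, adjusted p down to 0.0136) and in no other of these fits (adjusted p up to 0.661). MDA231 had 1490.3, 1505 and 1209 in PS, against 2100.0, 1510.1 and 2319.7 in CB on 203939_at, which touched without overlapping (-0.48, adjusted p = 0.344). On 1553994_at MDA231 had 922, 1229 and 529 in PS, against 1386, 818 and 1753 in CB, and on 1553995_a_at 245, 375 and 184 in PS, against 488, 257 and 641 in CB. Both probe sets overlapped between fractions, at -0.57 and -0.72 (adjusted p = 0.142 and 0.0921). These tests took the arrays as unpaired. Over the probe sets fitted, the MDA231 arrays correlated best as PS 1 with CB 1, PS 2 with CB 3 and PS 3 with CB 2. Matched so, each PS value of both probe sets was below its CB value. The same held for 203939_at in MDA435 with PS 1 and CB 3, PS 2 and CB 2, PS 3 and CB 1. This matching was made afterwards and was not tested.

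The arrays that were low for the qualifying NT5E probe sets were high in CDH1 in MDA231 and low in CDH1 in MDA435. CDH1 encodes the epithelial adhesion protein E-cadherin, and it was at 4.5, 13.7 and 1299 in MDA231 PS, against 8.2, 1777.5 and 2.2 in MDA231 CB. PS replicate 3 was the lowest PS array in 4 of the 5 qualifying member probe sets, and CB replicate 2 the lowest CB array in 5 of 5. All but ECE1 201749_at were probe sets of NT5E, and on ECE1 the lowest PS array was replicate 2 (120.2). In MDA435 CDH1 was at 2073, 921.5 and 33.2 in PS, against 32.8, 1044 and 2463 in CB. There the CDH1-low arrays, PS replicate 3 and CB replicate 1, were each the lowest of their fraction in 3 of the 4 qualifying member probe sets, all of NT5E. On the remaining one, ECE1 201749_at, the same arrays were the highest of their fraction (79.9 and 200.5). The sum of the 6 epithelial markers was 8856, 8030.1 and 13512 in MDA231 PS, against 7483, 12645 and 6414 in MDA231 CB. In MDA435 the sum was 11132, 8087 and 1407 in PS, against 1074, 5719 and 11433 in CB. Their part in the result was not tested. Without MDA231 CB replicate 2, the MDA231 log2 changes were -0.87 for NT5E 1553994_at, -1.08 for 1553995_a_at and -0.80 for ECE1 201749_at, and all of these passed the test (limma, adjusted p = 0.0213, 0.0102 and 0.0440). That fit left out the CDH1-high CB array but kept the CDH1-high PS array. At the other end of the 6 fits without 1 MDA231 array, the changes were -0.24, -0.44 and -0.26 (limma, adjusted p up to 0.528, 0.364 and 0.594). NT5E 203939_at and 227486_at passed in 0 of the 6 fits without 1 MDA231 array (lowest adjusted p = 0.214 and 0.423). Without all 6 arrays of MDA231 and MDA435 that had CDH1 at 900 or more, a choice made after seeing the data, NT5E 1553995_a_at passed in MDA231 (-0.85, adjusted p = 0.0462). In MDA435 that probe set (-1.04, adjusted p = 0.138) and ECE1 201749_at (-1.17, adjusted p = 0.0917) no longer passed, with 1 array left in each MDA435 fraction, whose spread is then taken to be that of the other groups. The numbers of member calls stayed at 11 of 12 probe sets and 24 of 36 pairs.

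**Figure D2:**
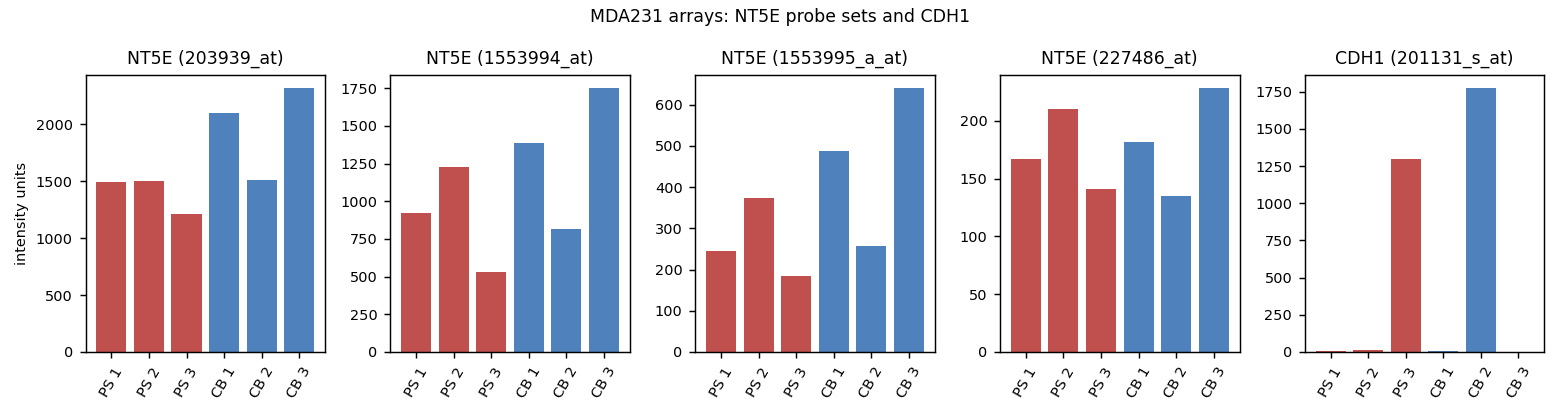
Intensity of the 4 NT5E probe sets and of CDH1 in the 6 MDA231 arrays (bars from 0, 1 panel per probe set with its own axis), PS in red and CB in blue. PS 3 and CB 2, the arrays with CDH1 at 1299 and 1777.5, are the lowest arrays of their fractions in all 4 NT5E panels.

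The fourth NT5E probe set, 227486_at, changed less than the others. It had 182, 207 and 289 intensity units in U87 PS, against 324, 243 and 250.1 in U87 CB. It had 176, 142.5 and 115 in DU145 PS, against 181, 163 and 161.5 in DU145 CB. In MDA231 it had 167, 209.7 and 141 in PS, against 182, 135 and 228.5 in CB. The fractions overlapped in all 3 of these lines, with log2 changes of -0.27, -0.22 and -0.06 (limma, adjusted p = 0.262, 0.475 and 0.868). The average, -0.18 ± 0.11 (SE; adjusted p = 0.152), passed in 2 of 36 fits without 1 array, those without U87 PS 3 or MDA231 CB 2 (adjusted p down to 0.0498, log2 change down to -0.24).

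The difference between probe sets of NT5E was itself tested, a comparison chosen after the values were seen. Over U87, DU145 and MDA231, the log2 changes of 203939_at, 1553994_at and 1553995_a_at minus that of 227486_at were -0.47, -0.48 and -0.72. In a two-sided exact permutation test of the fraction labels within lines (8000 arrangements), the p-values were 0.00025, 0.00075 and 0.00025, and 0.000375, 0.00075 and 0.000375 after adjustment over the 3 comparisons. The smallest p the test can give is 0.00025. The difference was negative in each of the 3 lines for each of the 3 probe sets.

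ECE1 was the only member above 100 intensity units in CB of all 6 lines. On 201749_at its CB means were 420.0 in HT1080, 399 in U251, 322 in U87, 244 in DU145, 212 in MDA231 and 156 in MDA435. U251 overlapped both HT1080 and U87, which were apart from each other. MDA231 overlapped both DU145 and MDA435, which were apart from each other. U87 lay above DU145 without overlap, although the highest MDA231 CB array (308) exceeded the lowest U87 CB array (287.5). Averaged over the lines it was lower in PS, with a log2 change of -0.84 ± 0.11 (SE; 1.79-fold lower; limma, adjusted p = 9.09e-08). HT1080 had 195, 134 and 128.5 in PS, against 420.5, 409 and 430.2 in CB. This was the largest change among the 6 lines (-1.39, adjusted p = 9.54e-05).

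In the other lines ECE1 ranged from a clear fall to a difference within the spread of the arrays. MDA435 had 39.7, 65.1 and 79.9 in PS, against 200.5, 119.5 and 149 in CB (-1.16, limma, adjusted p = 0.00151). U87 had 178, 86.1 and 233 in PS, against 351, 287.5 and 329 in CB (-0.99, adjusted p = 0.00331), a call that ended without PS 2 (adjusted p = 0.0678). U251 had 269, 220.3 and 208 in PS, against 369, 346 and 483 in CB. Its change of -0.73 (adjusted p = 0.0346) lost the call without PS 2, PS 3, CB 1 or CB 3 (adjusted p up to 0.151). The fractions overlapped in DU145, at 239, 224 and 169 in PS and 244, 220.3 and 268 in CB (-0.21, adjusted p = 0.645). They overlapped in MDA231 as well, at 152.5, 120.2 and 125 in PS and 308, 137.5 and 189 in CB (-0.55, adjusted p = 0.160).

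The dimmer ECE1 probe set, 201750_s_at, had log2 changes further from 0 than 201749_at in its 3 lines, a difference that was not tested. It had 19.6, 6.5 and 35.1 intensity units in U87 PS, against 77.9, 112 and 116 in U87 CB. In U251 it had 57.2, 38.4 and 55.7 in PS, against 123, 105 and 107 in CB. In HT1080 it had 39.0, 35.5 and 26.6 in PS, against 141, 139 and 151 in CB. In each of these lines the PS arrays were well clear of the CB arrays. The log2 changes were -1.76, -0.95 and -1.69 (limma, adjusted p = 1.01e-05, 0.00623 and 7.38e-06), and -1.47 ± 0.15 averaged (SE; adjusted p = 1.63e-09). The suffixes _s_at and _a_at are the array design's mark for probe sets shared between transcripts, and which ECE1, NT5E or MME transcript a probe set reports was not analysed here.

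**Figure D3:**
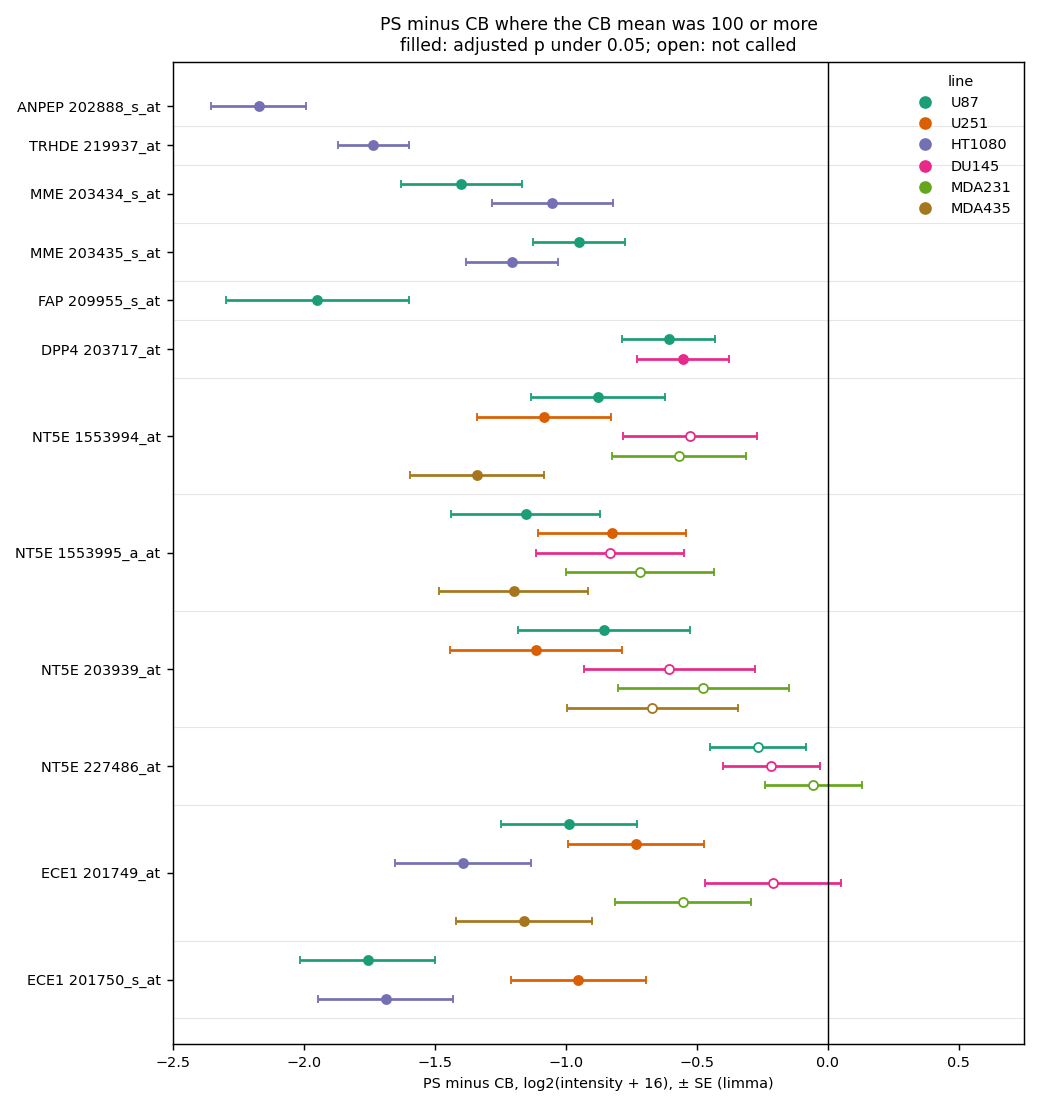
Log2 change, PS minus CB on the log2(intensity + 16) scale, of each member probe set in each line with a CB mean of 100 or more, with bars of 1 SE from limma. All 36 points lie below 0, and the 24 filled points passed the test, most of them in U87, U251 and HT1080.

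One array of U87 stood out among the members. PS replicate 3 was the highest PS array in 10 of 10 qualifying member probe sets. It was also the highest PS array in 89.5% of all 3102 probe sets called lower in U87 PS, and in 35.2% of all probe sets tested in U87. The 9 U87 member calls held without it, with log2 changes further from 0, as for FAP above.

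The differences between lines in the size of the fall were tested for the 9 member probe sets with at least 2 qualifying lines. The limma F test across all probe sets called 0 of 9. At an unadjusted level of 0.05, 1 of 9 passed, ECE1 201749_at (limma, F = 2.73, adjusted p = 0.596). Over all 17714 probe sets so tested, 0.0282% were called. A pass in one line and not in another is therefore not shown to be a difference between those lines for any member.

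Related genes, in lists chosen with earlier results of these data known, were counted with the brightest probe set of each gene, averaged over its qualifying lines. The CB limit admitted these genes too, so their counts are not independent evidence of direction either. Differences between the lists were not tested. In this count all 7 measured members were lower (median log2 change -1.23), and over all 10886 genes tested 23.9% were lower and 36.3% higher, with a median of 0.11. Other surface peptidases had 8 of 29 listed genes tested, of which 5 were lower, 2 higher and 1 not called (median -0.86). The lower ones included the carboxypeptidases CPD (PS mean 355, CB mean 918; -1.57 ± 0.15) and CPM (-1.22 ± 0.19), GGT7 of the glutamyltransferase family (-1.10 ± 0.14), and BACE2 (-0.93 ± 0.09), an aspartic protease (SE; limma, adjusted p at most 3.37e-06). The higher ones were ECE2, the closest relative of ECE1 (PS mean 210.4, CB mean 156; 0.38 ± 0.08, adjusted p = 0.000138), and PHEX, of the same family (0.47 ± 0.15, adjusted p = 0.00941).

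Peptidases of related families inside the cell had different counts by compartment. Of the endoplasmic reticulum, Golgi and lysosomal peptidases, 8 of 9 were tested and 8 were lower (median -1.15). Among them were SCPEP1 (PS mean 231, CB mean 635; -1.42 ± 0.09), the dipeptidyl peptidase CTSC (-1.29 ± 0.11), the antigen-trimming aminopeptidase ERAP1 (-1.28 ± 0.14) and PRCP (-1.16 ± 0.09; SE; limma, adjusted p at most 7.10e-09). All 21 cytosolic peptidases were tested. Of these, 1 was lower, 9 were higher and 11 were not called (median 0.15). The largest rises were those of THOP1 (0.46 ± 0.10), the aminopeptidase RNPEP (PS mean 936, CB mean 709; 0.39 ± 0.06), DNPEP (0.34 ± 0.04) and PEPD (0.33 ± 0.07), with an adjusted p of at most 0.000287 (limma). The insulin-degrading enzyme IDE was the 1 lower gene, at -0.16 (SE 0.07; limma, adjusted p = 0.0413).

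Genes listed by family or function for nucleotides and adenosine, the substrate and product side of NT5E, were counted in the same way. Of 14 surface nucleotide and adenosine enzymes, 4 were tested and 3 were lower (median -1.20). These were the phosphodiesterase family members ENPP2 (autotaxin; PS mean 406, CB mean 1326; -2.04 ± 0.25), ENPP1 (-1.31 ± 0.30) and ENPP4 (-1.09 ± 0.23), with an adjusted p of at most 0.000431. ENPP2 was listed for its family, and its product autotaxin is a secreted enzyme outside the AMP to adenosine route. ENTPD3 did not pass (-0.81, limma, adjusted p = 0.113). Of 12 cytosolic nucleotidases and adenosine enzymes, 10 were tested, with 5 higher, 1 lower and 4 not called (median 0.25). Adenosine deaminase ADA (0.51 ± 0.11), NT5C3B (0.51 ± 0.06) and NT5DC2 (0.45 ± 0.08) were higher, and NT5C3A (-0.53 ± 0.09) was the lower one (limma, adjusted p at most 0.000273). Of 7 adenosine receptors and carriers, 3 were tested and 2 were lower, the carrier SLC29A1 (-0.95 ± 0.09) and the receptor ADORA2B (-0.59 ± 0.09; limma, adjusted p at most 1.15e-06).

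Peptides that surface peptidases process, and their receptors, were mostly lower as well. Of 21 listed, 8 were tested, 7 were lower and 1 was not called (median -1.04). The log2 changes were -1.60 for the angiotensin receptor AGTR1 in U87, -1.36 for the endothelin receptor EDNRB over 4 lines, -1.23 for the substance P receptor TACR1 in U251 and -1.10 for the chemokine receptor CXCR4 over 3 lines (limma, adjusted p at most 1.16e-05). EDN1, the gene of an endothelin that ECE1 processes, was at -0.68 (adjusted p = 0.00437). BDKRB2 did not pass (-0.99, adjusted p = 0.0836).

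**Figure D4:**
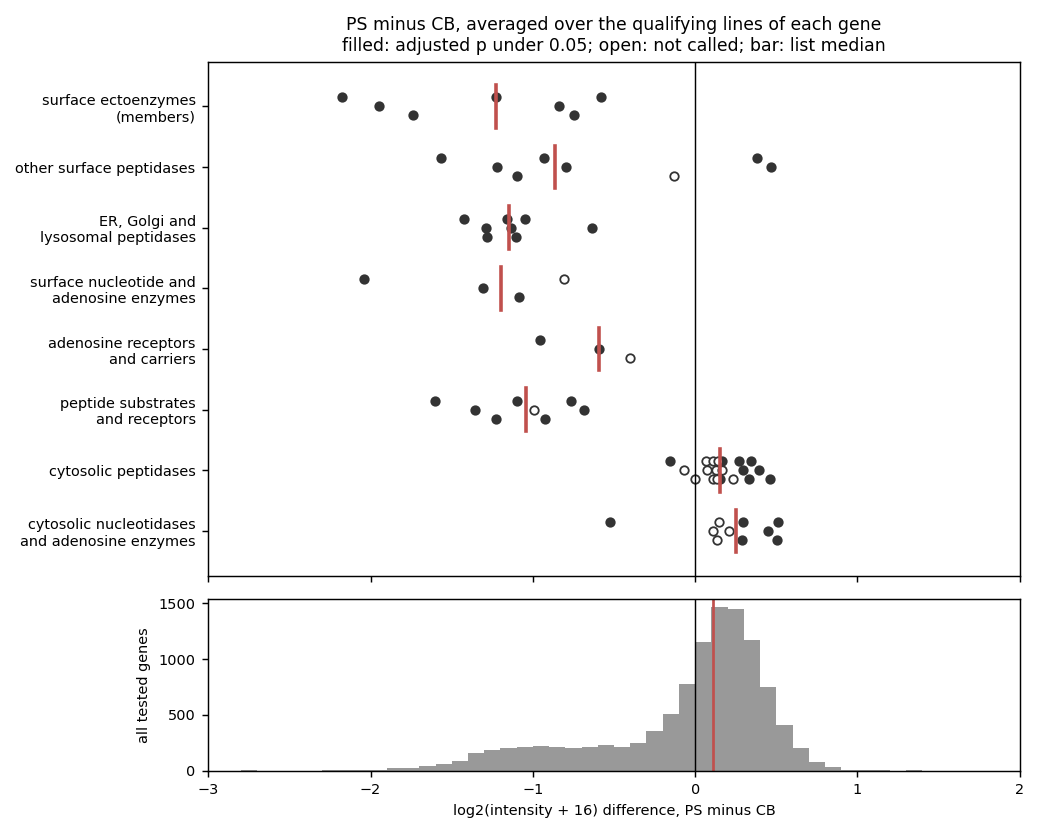
Averaged log2 change, PS minus CB, of the members and of 7 lists of related genes (top, 1 point per gene, filled where the adjusted p was under 0.05, red bar at the list median), above a histogram of all 10886 genes tested. The members, the surface lists and the endoplasmic reticulum, Golgi and lysosomal list have medians from -1.23 to -0.59, and the cytosolic lists 0.15 and 0.25.

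The genes most like each member were found by Pearson correlation over the 12 group means among 11159 other genes, as a description in which the 12 points share 6 lines. ANPEP and TRHDE were each among the closest for the other (r = 0.998), and the other nearest genes were ADGRL4 for ANPEP (r = 0.997) and C16orf54 for TRHDE (r = 0.998). Those genes had means of 811 and 452 in HT1080 and at most 4.65 in any other line. MME was most like KCNJ15 (r = 0.977) and PWWP3B (r = 0.964), both highest in HT1080 and U87. DPP4 was most like TNIP3 (r = 0.975) and the complement gene C3 (r = 0.961), both highest in U87 and DU145. FAP was most like CACNA1A (r = 0.960) and ENPP2 (r = 0.958), both highest in U87 and then MDA435. NT5E was most like C3orf18 (r = 0.955) and TFPI (r = 0.940), which were lowest in HT1080, and ECE1 was most like DCBLD2 (r = 0.959) and CD151 (r = 0.934), which were high in all 6 lines.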

How the data were processed

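Values were measured on 36 HG-U133 Plus 2.0 arrays. The deposited values are linear intensity units (0 to 9883.2), 1 column per array. Per the submitters' processing notes, the authors used RMA and Partek, with no role or version given. RMA gives log2 values, and the intensity values deposited by the authors are not on that scale. Their mean without the outer 2% at each end was 149.18 to 149.59 in all arrays, which shows scaling to a common mean, and medians were 18.2 to 30.6. The program that made them and the genome build are not given in the sources used here. The arrays give no counting depth, and 3 per group limits the precision.

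The design was written for log2 values, so log2(intensity + 16) was computed first, which understates changes of dim genes. limma 3.58.1 (R 4.3.3) was fitted to the 20319 probe sets with a qualifying line as 12 groups with empirical Bayes moderation, leaving 24 residual degrees of freedom. Contrasts were PS minus CB in each qualifying line (CB mean of 100 or more), their average and their differences, with Benjamini-Hochberg adjustment over the probe sets tested. The fits were run on simulated data with a known fall in some probe sets and noise drawn independently for each array. Such noise lacks the correlations between arrays given below, so the simulation does not show how the fits perform with them. Figures were made in Python 3.11.15.

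Symbols come from the platform annotation (41074 probe sets with 1 symbol, 1798 with several, 11721 with none), 41020 of them updated through RefSeq GRCh38.p14. All member probe sets are named. From each list of related genes, up to 4 called genes with the largest change are named, with further members, among them those not called, named after their values were seen. For likeness, the 2 highest correlations are named. The members and lists were chosen with earlier results of these data known. Alternatives were other pseudocounts, scalings, intensity limits and spread models, lines as units, a replicate block, and leaving out arrays or lines.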

Additional observations from a re-analysis of the deposited data

How the results depend on the processing

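The count of 11 lower member probe sets of 12 was the same with pseudocounts of 1 and 64, quantile normalization, equal array medians, a trended prior, the threshold of 0.01, without MDA231 and MDA435, and without the CDH1-high arrays. The count was also the same with a fit over the probe sets whose highest group mean reached the median intensity. It was 13 of 14 with a CB limit of 50, 9 of 10 with 200, and 11 or 12 in the 36 fits without 1 array each. With the line differences as units, 5 of 6 testable probe sets were called, fewer because a probe set needs several lines. The 24 of 36 pairs became 20 to 28 without 1 array, 21 with a pseudocount of 1, 20 with equal array medians and 19 at the threshold of 0.01. The count between lines was 0 in every alternative that gave one, which the fit with line differences as units does not. NT5E 227486_at, never called in MDA231, changed sign there to 0.022 with quantile normalization and 0.19 with equal array medians, and ran from -0.24 to 0.11 without 1 array. Its average became 0.012 with equal array medians, and the cause was not tested. Equal medians moved the median of all probe sets from 0.09 to 0.25.

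The replicate numbers do not pair the fractions: 4 of 18 same-number correlations exceeded 0.1 (range -0.81 to 0.74), and 4 of 18 PS arrays correlated best with their own number. Some arrays correlated strongly across numbers. In MDA231 r was 0.83 for PS 3 with CB 2 and 0.74 for PS 2 with CB 3. In MDA435 it was 0.82 for PS 3 with CB 1 and 0.81 for PS 1 with CB 3. A fit that pairs the arrays in this way was not made. With the replicate block, 11 of 12 probe sets and 21 of 36 pairs were called. That block uses the replicate numbers, so it does not show how the calls depend on pairing.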
